A study of Homo sapiens with 4 samples.

Results

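The contacts of the KLF10 promoter were described in SMC1 HiChIP libraries of A673 cells, a human Ewing sarcoma line, without and with STAG2. STAG2 had been disrupted with Cas9 in clones grown from single cells, which gave 2 STAG2-null libraries, and 2 wild-type libraries came from A673 cells with no edit named. HiChIP ligates neighbouring chromatin fragments and pulls down those bound by a chosen protein, here SMC1, so that each paired-end tag (PET) reports a contact between a pair of bound stretches, called anchors. Libraries of a genotype are not stated to be separate cultures, so the spread between them may be technical, and the number of clones behind the STAG2-null libraries is not given.

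All anchor pairs with an anchor overlapping chromosome 8 positions 103658000 to 103675000 (hg19) were taken, a 17-kb window around KLF10. The window held a single anchor, at 103663320 to 103670151, to which the authors' deposited table assigns the transcription start of KLF10, so the window and the promoter anchor are the same set. It took part in 20 of the 1125468 anchor pairs of the series and in 70 of its 2807624 PETs. KLF10 was chosen by its PETs in these same 4 libraries, which were known when it was picked. Its difference between the genotypes is therefore given as a description, with no test. The anchors nearest outside the window lay 22.4 kb below it and 131 kb above it in coordinates.

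SMC1 is a core subunit of cohesin, the ring complex that extrudes chromatin into loops and is halted at sites bound by CTCF. STAG1 and STAG2 are alternative subunits of that ring, so cells without STAG2 depend on the form that carries STAG1. KLF10 encodes a zinc finger transcription factor of the Kruppel-like family that is induced early by TGF-beta and that dampens an inhibitor of this pathway. In the gene order of RefSeq (GRCh38.p14, used for names only) its nearest protein-coding neighbours are ODF1, which encodes a protein of the sperm tail, and AZIN1, which encodes an inhibitor of antizyme and so favours polyamine synthesis.

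Library totals were 682724 and 698002 PETs for STAG2-null 1 and 2, and 661881 and 765017 PETs for wild-type 1 and 2. Chromosome 8 carried 3.25 ± 0.0744% of the STAG2-null PETs and 3.24 ± 0.00884% of the wild-type PETs (SD, n = 2), so the chromosome as a whole differed by 0.01 on the log2 scale. SMC1 contacts hold no transcript levels, and neither the loss of STAG2 nor the level of KLF10 could be checked here. Intervals given below cover counting error only.

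The KLF10 promoter anchor made more contacts in STAG2-null cells, and most of the surplus lay in a single pair 154 kb away. It held 25 and 29 PETs in the STAG2-null libraries, against 6 and 10 PETs in the wild-type libraries, and the groups did not overlap. Scaled to 1000000 PETs of the TMM-adjusted library, STAG2-null cells averaged 39.0 ± 3.56 and wild-type cells 11.1 ± 2.76 (SD, n = 2). The ratio of scaled PETs was 3.47 (95% interval 1.96 to 6.5), and the log2 change in edgeR's fit over 60425 anchors was 1.78 ± 0.39 (standard error). For scale, 70 PETs put the anchor above 70.4% of all anchors and above 77.5% of those on chromosome 8, where the median anchor held 29.

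The contacts of KLF10 were concentrated in few partners, mostly through the STAG2-null libraries, which held 27 of the 30 PETs of its strongest pair. Over the 4 libraries 42.9% of its PETs lay in its strongest pair, against a median of 14.7% for the 18942 anchors with between 50 and 100 PETs, and 99.2% of those anchors were less concentrated. In the wild-type libraries alone the pair held 3 of 16 PETs, so the pooled share restates in part the difference by which KLF10 was chosen. KLF10 had 20 partners, where the median of such anchors was 33. Those anchors were matched on PETs and not on the number of anchors around them. From 100 to 110 Mb there was 1 anchor per 78.7 kb, and none for 131 kb above KLF10. Few partners and a high share in the strongest pair can therefore not be told apart from the spacing of anchors there. The KLF10 anchor is broad, at 6831 bp against a median width of 2342 bp, and so is the partner of its strongest pair, at 8103 bp.

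The strongest partner lay at 103816728 to 103824831, toward higher coordinates. The pair held 14 and 13 PETs in STAG2-null libraries, against 2 and 1 PETs in wild-type libraries. Both STAG2-null libraries stood far above both wild-type libraries. Summed, 27 PETs stood against 3, a ratio of 9.25 (95% interval 2.85 to 47.7), and the log2 change in edgeR's fit over pairs was 3.02 ± 0.70 (standard error). Of the 169617 pairs in the series with midpoints 100 to 200 kb apart, whose median was 1 PET over the 4 libraries, 0.0507% reached 27 PETs in the STAG2-null libraries and 11.5% reached 3 PETs in the wild-type libraries. Among pairs of this length it was thus in the extreme tail in STAG2-null cells and within the upper range of ordinary pairs in wild-type cells. KLF10 was chosen by these same PETs, so these ranks restate that choice in part and are no independent support.

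The authors' deposited table of 650 differential loops contains this pair as its sole loop at KLF10. It gives a log2 fold change of -3.06, coded wild-type over mutant, with an adjusted p of 0.00545 in the authors' comparison, which ranked 4 in that table. The authors' comparison rests on this same series, by whose PETs KLF10 was chosen. Its p and rank are therefore no independent support. The same table marks CTCF and H3K27ac, a histone mark of active promoters and enhancers, at both anchors, FLI1 at neither, and a promoter at the KLF10 anchor only. In the authors' deposited table of differential loops this combination (CTCF and H3K27ac at both anchors, FLI1 at neither and a promoter at 1) occurs in 13 loops, of which 4 are marked stronger in the mutant. Over all 650 loops of that table, 350 are marked stronger in the mutant. The gene expression status that the table lists for KLF10 is NA. The pair is also the sole KLF10 loop among the authors' 22680 high-confidence loops.

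Next to the strongest partner lay a pair of further anchors. The anchor at 103825578 to 103827745, 160 kb from KLF10, held 2 and 4 PETs with KLF10 in STAG2-null libraries, against 0 and 3 PETs in wild-type libraries. The anchor at 103800811 to 103802536, 135 kb away, held 1 and 1 PETs in STAG2-null libraries, against 1 and 2 PETs in wild-type libraries. For both, the groups overlapped. Contact with these flanks was thus found in both genotypes, and no contrast like that of 27 to 3 PETs was counted at either flank. With anchors merged within 5 kb, the strongest partner and the one at 160 kb became 1 anchor, and the pair then held 16 and 17 PETs in STAG2-null libraries, against 2 and 4 PETs in wild-type libraries.

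**Figure D1:**
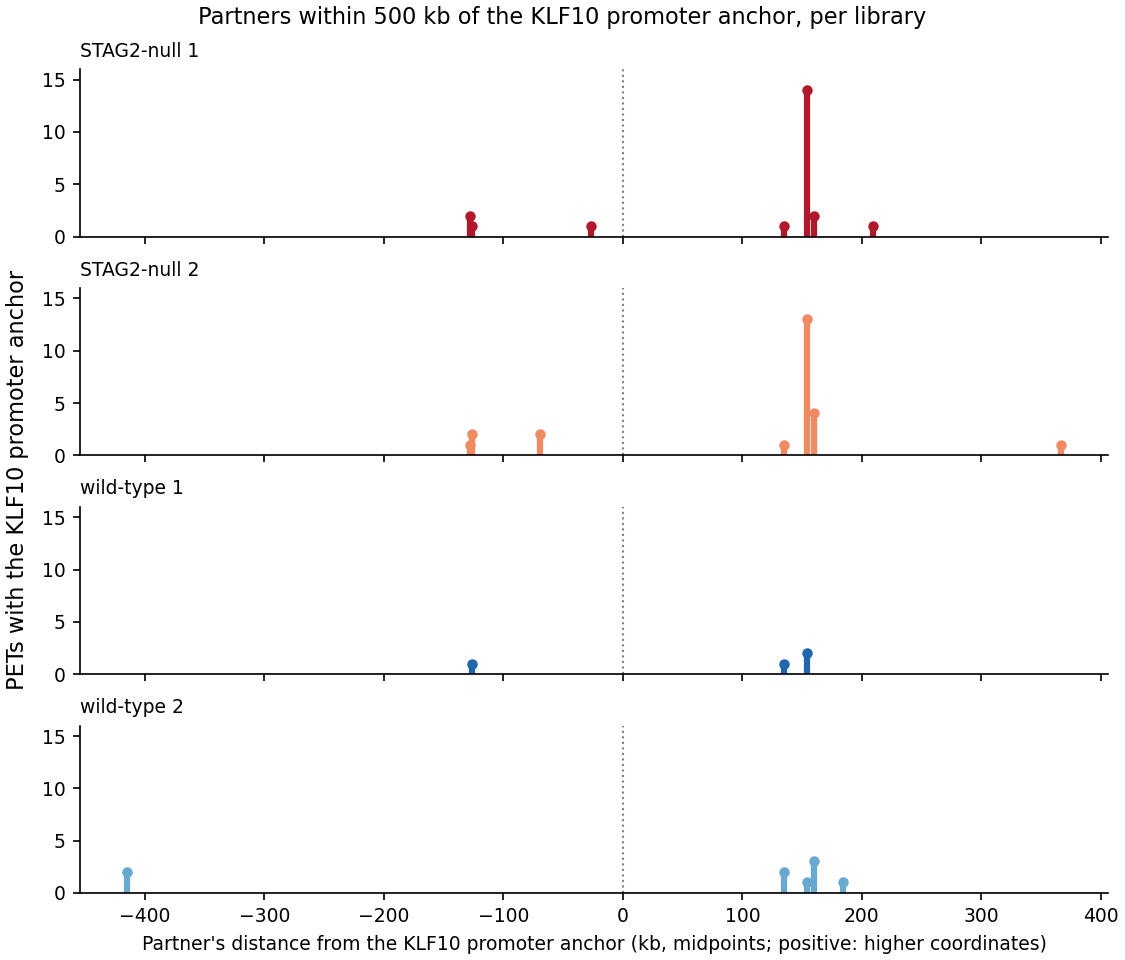
PETs between the KLF10 promoter anchor and each partner within 500 kb (vertical axis), by distance between midpoints in kb (horizontal axis, positive toward higher coordinates), 1 panel per library. The spike 154 kb away holds 14 and 13 PETs in the STAG2-null panels and 2 and 1 PETs in the wild-type panels, and no other partner exceeds 4 PETs in a library.

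On the lower side, 13 partners shared 22 PETs with KLF10. The anchor at 103540164 to 103542299, 126 kb away, held 1 and 2 PETs in STAG2-null libraries, against 1 and 0 PETs in wild-type libraries. Its close neighbour 128 kb away held 2 and 1 PETs in STAG2-null libraries, against 0 and 0 PETs in wild-type libraries. Together, partners on the lower side held 6 and 10 PETs in STAG2-null libraries, against 3 and 3 PETs in wild-type libraries, which did not overlap (ratio 2.74, 95% interval 1.02 to 8.55). A surplus was therefore counted on both sides of KLF10, with few PETs behind the lower one. Pairs of the neighbouring region without KLF10, given below, had a ratio of 2.18 (95% interval 1.42 to 3.44). The intervals overlap, so the lower surplus was not particular to KLF10.

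The remaining contacts were thin. Of the 20 partners, 16 held fewer than 4 PETs over the 4 libraries and 12 held 1 PET. The STAG2-null libraries found 10 and 12 partners, against 5 and 6 in the wild-type libraries, and 2 partners were found in all 4. Of the rest, 11 were seen in STAG2-null libraries only and 4 in wild-type libraries only. A partner with 1 PET can be seen in 1 genotype only, and KLF10 was chosen by its PETs. The split therefore restates that choice in part, and it was not set against the share over all pairs. At 1 or 2 PETs per partner and with fewer KLF10 PETs in the wild-type libraries, a partner missing from a library may be undetected rather than absent.

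Partners at least 500 kb away, up to 1820 kb, numbered 9. They held 3 and 5 PETs in STAG2-null libraries, against 2 and 1 PETs in wild-type libraries. The most frequent was the anchor at 101961774 to 101966629, 1700 kb away, with 1 PET in each library except wild-type 2. As a share of the contacts of KLF10, pairs of at least 100 kb made up 96.0% (Wilson 95% interval 80.5 to 99.3) and 93.1% (78.0 to 98.1) in STAG2-null libraries, against 100% (61.0 to 100) and 100% (72.2 to 100) in wild-type libraries. The intervals overlap. Among all pairs, 51.6% to 52.9% of a library's PETs spanned at least 100 kb. KLF10 contacts were nearly all long, but few anchors lay within 100 kb of it. The nearest at higher coordinates was 131 kb away, so short pairs had few anchors to form with and the shares are not directly comparable. The closest partner lay 26.8 kb away and held 1 PET, in STAG2-null 1.

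Pairs of KLF10 other than the strongest held 11 and 16 PETs in STAG2-null libraries, against 4 and 9 PETs in wild-type libraries. The groups did not overlap, and the ratio was 2.14 (95% interval 1.06 to 4.51). Without the strongest pair the log2 change in edgeR's fit was 1.08 ± 0.49 (standard error), against 1.78 with it, an alternative added after the data were seen. The strongest pair made up 56.0% (Wilson 95% interval 37.1 to 73.3) and 44.8% (28.4 to 62.5) of the KLF10 PETs in STAG2-null libraries, against 2 of 6 PETs (9.68% to 70.0%) and 1 of 10 PETs (1.79% to 40.4%) in wild-type libraries. The intervals of the wild-type shares, from 6 and 10 PETs, are wide and overlap those of the STAG2-null shares.

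The neighbourhood of KLF10, chromosome 8 positions 103400000 to 104100000, held 12 other anchors, 10 of which shared a PET with KLF10. To compare them with KLF10, pairs that involve KLF10 were left out of their counts. What was left held 31 and 37 PETs in STAG2-null libraries, against 18 and 14 PETs in wild-type libraries, and did not overlap. The ratio was 2.18 (95% interval 1.42 to 3.44), close to that of the KLF10 pairs other than the strongest (exact two-sided permutation test over the 4 library shares, p = 0.333, the smallest possible). Neighbouring pairs were therefore also more frequent in the STAG2-null libraries.

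The surplus of the neighbours lay mostly in pairs that left the region. These held 15 and 16 PETs in STAG2-null libraries, against 3 and 6 PETs in wild-type libraries, a ratio of 3.54 (1.65 to 8.46). Pairs with both anchors inside the region held 16 and 21 PETs in STAG2-null libraries, against 15 and 8 PETs in wild-type libraries, a ratio of 1.65 (0.957 to 2.92). The interval of the strongest KLF10 pair, from 2.85, overlaps that of the pairs that leave the region and just reaches that of the pairs inside it.

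**Figure D2:**
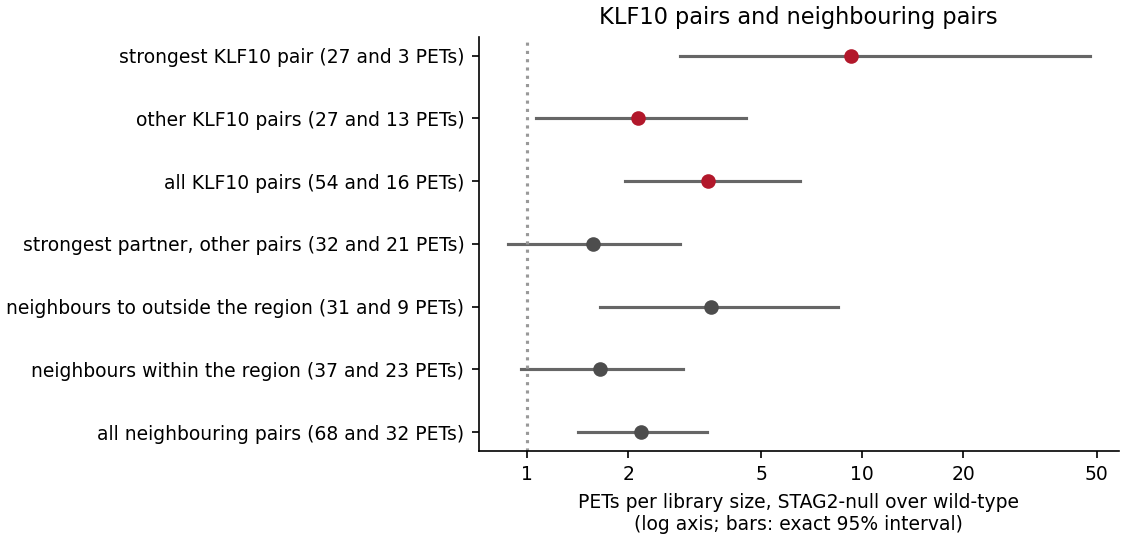
Ratio of library-scaled PETs, STAG2-null over wild-type, on a log axis, with exact 95% binomial intervals that cover counting error only, for KLF10 pairs (red) and neighbouring pairs that do not involve KLF10 (grey), with the summed PETs of STAG2-null and wild-type libraries beside each name. The strongest KLF10 pair stands at 9.25, the other KLF10 pairs at 2.14 and all neighbouring pairs at 2.18.

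Taken anchor by anchor, both STAG2-null libraries held more PETs than both wild-type libraries at 5 of the 12 neighbours, and at 0 were they below. Over all 79850 anchors of the series such a higher count in both STAG2-null libraries occurred at 14.1%. Sums of 2 to 53 PETs stand behind the neighbours, so most could not be tested. Of the 2 that reached 20 PETs, 0 were called higher and 0 lower in edgeR's quasi-likelihood test at an adjusted p under 0.05, with 0 at an unadjusted p under 0.05, where 0.371% of all anchors tested were called higher and 0.501% lower. DESeq2 gave these anchors no adjusted p.

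The strongest partner was the busiest neighbour. Without KLF10 it held 16 and 16 PETs in STAG2-null libraries, against 13 and 8 PETs in wild-type libraries. The groups lay apart, and the log2 change of 0.64 ± 0.42 (standard error) did not pass (edgeR adjusted p = 0.571). Its other contacts were led by the anchor 5.88 kb away, with 4 and 6 PETs in STAG2-null libraries, against 7 and 2 PETs in wild-type libraries, and by the one 19.1 kb away, with 4 and 3 PETs in STAG2-null libraries, against 2 and 2 PETs in wild-type libraries. The first of these is the other high-confidence loop that the authors' deposited table lists in the region. Both genotypes thus held local contacts of this distal anchor, while its pair with KLF10 held 27 against 3 PETs.

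The anchor 160 kb from KLF10 held 5 and 11 PETs without KLF10 in STAG2-null libraries, against 7 and 2 PETs in wild-type libraries, and its groups overlapped (log2 0.85 ± 0.61, standard error; edgeR adjusted p = 0.62). The anchor 184 kb away held 3 and 7 PETs in STAG2-null libraries, against 4 and 0 PETs in wild-type libraries, and overlapped too. At 209 kb the counts were even, with 2 and 3 PETs in STAG2-null libraries, against 4 and 1 PETs in wild-type libraries. The groups lay apart 135 kb and 420 kb away, the second being at the edge of the region. The anchor at 135 kb held 4 and 4 PETs in STAG2-null libraries, against 2 and 2 PETs in wild-type libraries, and the anchor at 420 kb held 5 and 4 PETs in STAG2-null libraries, against 1 and 3 PETs in wild-type libraries. Most neighbours held fewer PETs than the strongest KLF10 pair, which belongs to a locus chosen by its PETs. Their ratios were therefore not ranked against that of the pair.

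**Figure D3:**
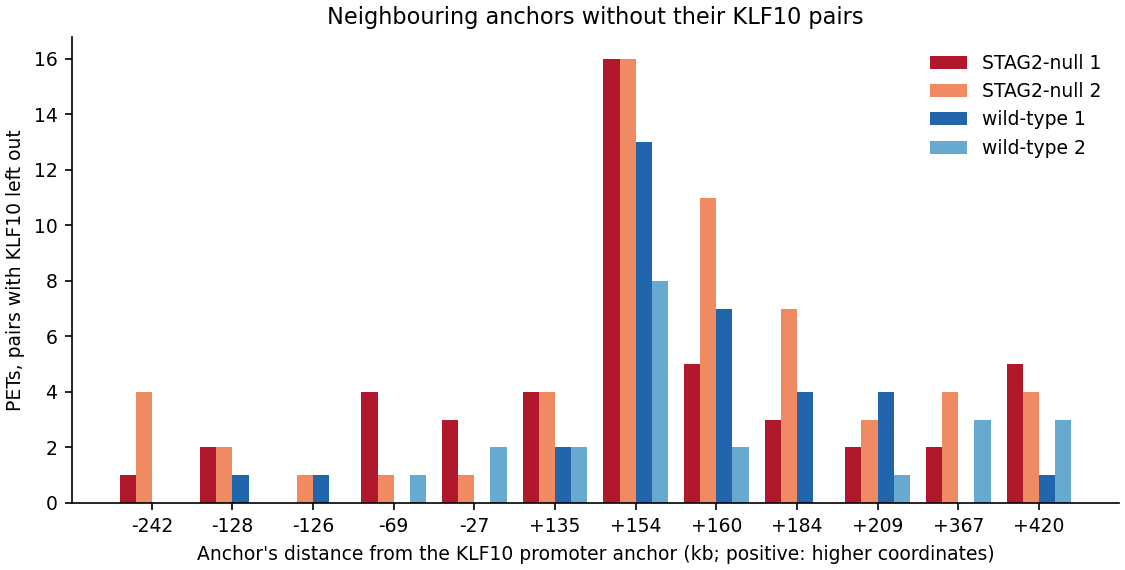
PETs of each of the 12 neighbouring anchors in each library (vertical axis), with pairs that involve KLF10 left out, ordered by distance from the KLF10 promoter anchor in kb (horizontal axis, positive toward higher coordinates). The anchor 154 kb away is the busiest, with 16 and 16 PETs in STAG2-null libraries and 13 and 8 PETs in wild-type libraries.

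Per kb of anchor over the 4 libraries, the KLF10 anchor held 10.2 PETs, the strongest partner 6.54 without KLF10 and the anchor 160 kb away 11.5. The 5 neighbours on the lower side held between 0.937 and 3.12 PETs per kb, also without KLF10. Those on the upper side held between 3.16 and 11.5, so the upper side was busier once pairs with KLF10 were left out. The value of KLF10 counts all its pairs and is not on the same footing.

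Partners were followed beyond KLF10 in the same way. Of the 20 partner anchors, 4 reached 20 PETs without their KLF10 pairs, and 0 of them were called higher and 0 lower (edgeR, lowest adjusted p = 0.556, with 0 at an unadjusted p under 0.05). Over all anchors tested, 0.371% were called higher and 0.501% lower, so so few anchors say little. All 4 had positive log2 changes, from 0.56 to 0.85, with a median of 0.68, where the median of all tested anchors was 0.00. The 26 anchors tested from 100 to 110 Mb, which include these 4 and not KLF10, had a median of 0.78. A rise of this size was thus not particular to partners of KLF10. The anchors 154 kb and 160 kb away, among the 4, are also the 2 tested neighbours above. The anchor 1700 kb away was the second busiest of the 4, with 12 and 14 PETs in STAG2-null libraries, against 9 and 7 PETs in wild-type libraries (log2 0.73 ± 0.47, standard error; edgeR adjusted p = 0.556).

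Beyond the neighbourhood, pairs holding 4 PETs or fewer in the sum of all libraries, called sparse here, were counted per window of 10 Mb. In the window of KLF10, from 100 to 110 Mb, they held 174 and 212 PETs in STAG2-null libraries, against 102 and 134 PETs in wild-type libraries, with KLF10 left out. The log2 ratio of library shares was 0.76. The windows on either side stood at 0.56 (80 to 90 Mb), 0.72 (90 to 100 Mb) and 0.68 (110 to 120 Mb), and in each of the 4 windows both STAG2-null libraries lay above both wild-type libraries. That ordering also occurred in 7 of 35 other windows of the genome with 300 to 1000 sparse PETs, in 28 of 90 with 1000 to 3000 and in 50 of 162 with at least 3000. Just outside, the windows from 70 to 80 Mb and from 120 to 130 Mb stood at -0.13 and 0.02. KLF10 thus lay within a stretch of about 40 Mb in which sparse contacts were more frequent in the STAG2-null libraries, a stretch picked after its values were seen.

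That stretch was also thinly covered, with 428 to 769 sparse PETs per window. Among the 35 other windows of like coverage the median log2 ratio was -0.03, with 17 above 0, and 1 reached 0.56. Of the 26 anchors from 100 to 110 Mb that could be tested, KLF10 left out, 24 had a positive log2 change, with a median of 0.78, and 0 were called higher or lower in edgeR (unadjusted p under 0.05 at 6 anchors, all higher, where 3486 of all 60425 anchors were higher by that measure). Of the 26, 1 had a larger log2 change than KLF10. Since KLF10 was chosen by its PETs in these libraries, its rank among these or further anchors carries no weight. From 80 to 120 Mb 93 anchors could be tested without KLF10, 84 of which had a positive log2 change, with a median of 0.76, and 4 a larger one than KLF10. In edgeR 3 of the 93 were called higher and 0 lower (29 and 0 at an unadjusted p under 0.05), counts that describe a stretch picked for its values. Over all anchors tested, 0.371% were called higher and 0.501% lower. Scaled to the sparse pairs of its window in place of TMM, KLF10 stood at 1.04 ± 0.39 and its strongest pair at 2.39 ± 0.71 (standard errors). The part of this wider difference in the KLF10 values was not tested. The labels state no copy number for this stretch, so a difference in its copies between the lines and a difference in contacts cannot be told apart.

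**Figure D4:**
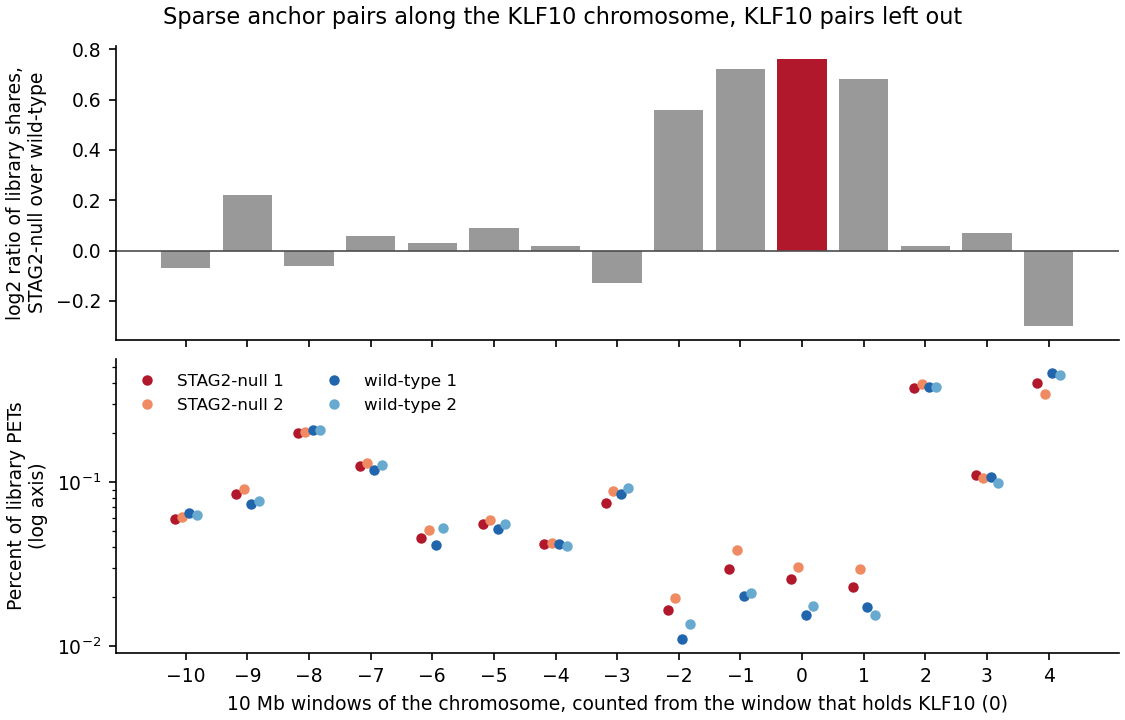
Sparse anchor pairs per 10 Mb window of chromosome 8, counted from the window that holds KLF10 (0, red), with KLF10 pairs left out. The upper panel gives the log2 ratio of library shares, STAG2-null over wild-type, and the lower panel the percent of each library's PETs on a log axis. Windows -2 to 1 stand at 0.56, 0.72, 0.76 and 0.68, and the windows next to them at -0.13 and 0.02.

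Of 49 other genes of the Kruppel-like and SP family and of TGF-beta signalling, 2 had a promoter anchor placed by the authors' deposited table, and 0 were called higher or lower in edgeR or in DESeq2, with 0 at an unadjusted p under 0.05 in either. Over all anchors tested, edgeR called 0.371% higher and 0.501% lower. DESeq2 called 2 higher and 20 lower among 3022 anchors with an adjusted p. KLF16, a family member on chromosome 19, held 121 and 127 PETs in STAG2-null libraries, against 99 and 116 PETs in wild-type libraries (log2 0.25 ± 0.16, standard error; edgeR adjusted p = 0.573). SMAD7, the inhibitor of TGF-beta signalling whose transcription KLF10 is known to repress, held 450 and 458 PETs in STAG2-null libraries, against 445 and 516 PETs in wild-type libraries (log2 -0.04 ± 0.12; edgeR adjusted p = 0.93). The other 47 genes are not analysed here.

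Among 198 other named promoter anchors, which the authors' deposited table names and which were thus picked for changed loops, the 5 with a pattern over the 4 libraries most like that of KLF10 were those of CARM1, PLCH1, USE1, EMR2 and B3GNT9. Likeness was the Euclidean distance between log2 scaled PETs, each centred on its own mean, and ran from 0.815 (CARM1) to 0.953 (B3GNT9). CARM1, an arginine methyltransferase gene, held 65 and 97 PETs in STAG2-null libraries, against 35 and 47 PETs in wild-type libraries. The anchor of PLCH1, a phospholipase C gene, is also named for AC104472.1. It held 17 and 24 PETs in STAG2-null libraries, against 8 and 14 PETs in wild-type libraries. The log2 changes were 1.02 ± 0.21 for CARM1 and 0.93 ± 0.39 for PLCH1 (standard errors), smaller than that of KLF10, itself chosen by its PETs. All 5 were picked for likeness to KLF10, so the positive sign of their changes follows from that choice.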

How the data were processed

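SMC1 HiChIP was measured in 4 A673 libraries, 2 per genotype. Per the submitters' processing notes, the named tool is HiC-Pro and the named build hg19, with no tool version. For each library the authors deposited raw counts of PETs per anchor pair and a p-value per pair, the settings of the caller being not stated in the labels or headers. Beside these, the authors' deposited table of differential loops holds log2 fold changes and adjusted p-values, per the file headers, and its counts name a genotype and not a library, so each library's PETs were read from its own file.

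PETs were summed per anchor, pairs with KLF10 being left out for all anchors but its own, and anchors or pairs with at least 20 PETs over the 4 libraries were fitted on genotype alone with edgeR 4.0.16 in R 4.3.3 (TMM, quasi-likelihood test, Benjamini-Hochberg adjustment over all anchors, threshold 0.05). The standard error of a log2 change was its absolute value divided by the square root of the quasi-likelihood F. DESeq2 1.42.0 was an alternative. Exact 95% intervals came from scipy 1.17.1.

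KLF10, the gene list and the settings were chosen with earlier results of these data known. Named were KLF10, its partners with at least 4 PETs, neighbours among the 10 with the most PETs, list members that passed or the 3 with the most PETs (2 were placed), the authors' loops at KLF10 and the 5 promoters with the smallest distance to its pattern. Some partners with fewer PETs were named after their values were seen. Promoters were placed for 252 genes whose anchor that table gives unambiguously. No sequence of this locus is printed.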

Additional observations from a re-analysis of the deposited data

How the results depend on the processing

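The log2 change of the KLF10 promoter anchor, 1.78, ran from 1.57 to 2.08 on leaving out each library in turn, the highest without wild-type 2, and stood at 1.79 with the replicate number as a block. It was 1.04 with scaling to the sparse pairs of its 10 Mb window and 1.08 without the strongest pair. The strongest pair, at 3.02, ran from 2.56 to 3.62 without each library, the highest without wild-type 1, and was 2.39 with the window's sparse pairs and 3.02 with the replicate block. Neighbouring contacts, at a log2 ratio of 1.11, ran from 0.86 to 1.43 without each library, and were 1.47 for pairs of at least 20 kb and 0.64 for pairs with at least 2 PETs. The share of KLF10 contacts of at least 100 kb, -5.45 percentage points in STAG2-null minus wild-type, ran from -6.9 to -4.0 without each library and was -2.0 with a limit of 50 kb and -13.32 with a limit of 200 kb. The cause of these moves was not tested. All kept their direction under the alternatives run. Counts of called neighbours, partners and list promoters were 0 under each alternative that gave a value, while calls over all anchors ran from 0 higher and 0 lower without STAG2-null 1, over 2 and 20 in DESeq2, 1 and 5 for pairs of at least 20 kb, 60 and 45 with chromosome totals and 122 and 176 with at least 10 PETs, to 336 and 465 with at least 50 PETs. DESeq2 gave neighbours and partners no adjusted p. Same-numbered libraries showed no shared deviation (correlation 0.00608 over 60425 anchors). Many of these anchors hold few PETs, where counting error can hide one, so whether the numbers pair the libraries is not settled. The replicate block changed no call among these sets. With 16 wild-type PETs at KLF10, depth limits any statement on single partners.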
